A study of Mus musculus with 8 samples.

Results

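The genes described here are the 5 lysyl oxidases (Lox, Loxl1, Loxl2, Loxl3 and Loxl4), the 3 lysyl hydroxylases (Plod1, Plod2 and Plod3) and transglutaminase 2 (Tgm2), 9 enzymes that make, or prepare, covalent cross-links between proteins of the extracellular matrix. They were represented by every probe set (a group of short oligonucleotides that reports 1 target) that the platform annotation assigns to 1 of these symbols alone. This gave 19 of the 45037 probe sets considered and 8 of the 18193 genes with such a probe set. Lox had 3 probe sets, Loxl1, Loxl4, Plod1 and Plod2 had 2 each, Loxl3 and Plod3 had 1 each, and Tgm2 had 6. Loxl2 had 2 probe sets, both also assigned to Gm21451, so it has no value of its own here.

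Collagen fibrils gain their strength in steps. Inside the cell, lysyl hydroxylases add hydroxyl groups to lysines of procollagen, some of which then carry sugars. After secretion, the copper enzymes of the lysyl oxidase family turn lysines and hydroxylysines into aldehydes, which condense into cross-links of collagen and elastin. Plod2 acts on the lysines of the telopeptides, the short non-helical ends of collagen, whose hydroxylation sets the type of cross-link that forms in cartilage and bone. Transglutaminase 2 makes a different link, between glutamine and lysine side chains, and is known from cartilage as an enzyme of maturing chondrocytes.

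Levels were measured in primary rib chondrocytes of FVB mouse embryos at E18.5 (embryonic day), freed from rib cages with collagenase and trypsin. The 4 transgenic samples came from embryos labelled Hoxd4 transgenic, and the 4 control samples from littermates labelled wild type. Each of 4 litters gave 1 sample of either genotype, read on 1 array each, so that same-numbered samples share a litter. The labels shorten the genotypes to TR and TA without saying what these stand for, and give neither the promoter and cells that drive the transgene nor the number of embryos per sample. The question of the comparison is which transcripts differ when Hoxd4, a homeobox transcription factor of the axial skeleton, is overexpressed in these cells. Because the samples are bulk RNA, fewer cells of a type and less RNA per cell cannot be told apart.

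Values are MAS5 signals on a linear scale. Median signals of the 8 arrays ran from 100.5 to 115, and any pair of arrays had a rank correlation of 0.932 to 0.942, so no array stood apart. All 10 chondrocyte markers and all 11 fibroblast and perichondrium markers looked up were bright enough to be tested, as were all 10 skeletal muscle markers, so the digests held RNA of more than cartilage. The brighter of the 2 probe sets shared by Hoxd4 and its neighbour Hoxd3 had signals of 94.1, 415, 172 and 13 in the transgenic arrays of litters 1 to 4, against 27.3, 42.6, 4.10 and 256 in the control arrays (exact permutation p = 0.40). The other had 26.8, 11.4, 20.0 and 24.3 in transgenic and 31.3, 8.92, 17.8 and 48.0 in control arrays (exact permutation p = 0.66). Both were too dim to be tested. The brighter one was lower in the transgenic array of litter 4, and the other in that of litters 1 and 4. At such low signals neither can check the labels, so directions below rest on the labels alone. Xist, the RNA of the inactive X chromosome, had signals of 79.8, 3266, 47.2 and 8209 in the transgenic arrays and of 5778, 9945, 13760 and 8098 in the control arrays, lower in the transgenic array of litters 1 to 3. In 4 of 4 litters the transgenic array had more of 3 Y-linked transcripts, Eif2s3y, Uty and Kdm5d, with log2 fold changes of 0.92, 0.86 and 0.75 (unadjusted p = 0.00023, 0.00040 and 0.0045), none past the adjusted threshold. In litter 4 Eif2s3y had 813 in the transgenic and 486 in the control array. Sex-linked transcripts therefore moved with the genotype label, and their part in the results below was not tested beyond a fit with Xist as a covariate.

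No cross-linking enzyme differed between transgenic and control chondrocytes beyond the adjusted threshold. Of the 19 probe sets 16, standing for 8 genes, were bright enough to be tested, and none passed an adjusted p of 0.05 in limma, where 0% of all 22518 tested probe sets passed. The lowest adjusted p among the 16 was 0.9997, and 0.84 with the litter as a block, a fit in which 0% of all probe sets passed as well. At an unadjusted p under 0.05 there was 1 member probe set, against 3.29% of all tested probe sets (1.59% in its direction, higher), and there were 2 with the litter as a block, against 5.52% of all. Log2 fold changes were above 0 for 10 of the 16 and below 0 for 6, where 51.2% of all tested probe sets were above 0. By the brightest probe set of each gene, the median log2 fold change was 0.01 over the 8 genes and -0.00061 over all 11016 genes tested.

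The fit reported, which has no covariate, also bounds how large a difference could have been. The 95% interval of the log2 fold change lay within a 1.5-fold change for all 16 tested member probe sets, against 86.1% of all. To either side of the estimate the interval reached a median of 0.20 on the log2 scale for the members and of 0.27 for all tested probe sets. These bounds hold for each probe set alone, on the scale with 32 added to the signal. They do not cover the fit with Xist as a covariate, for which no intervals are given. In that fit the log2 fold changes of Plod2 1416686_at and Lox 1416121_at were 0.35 and 0.29, against 0.23 and 0.06 in the fit reported.

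**Figure D1:**
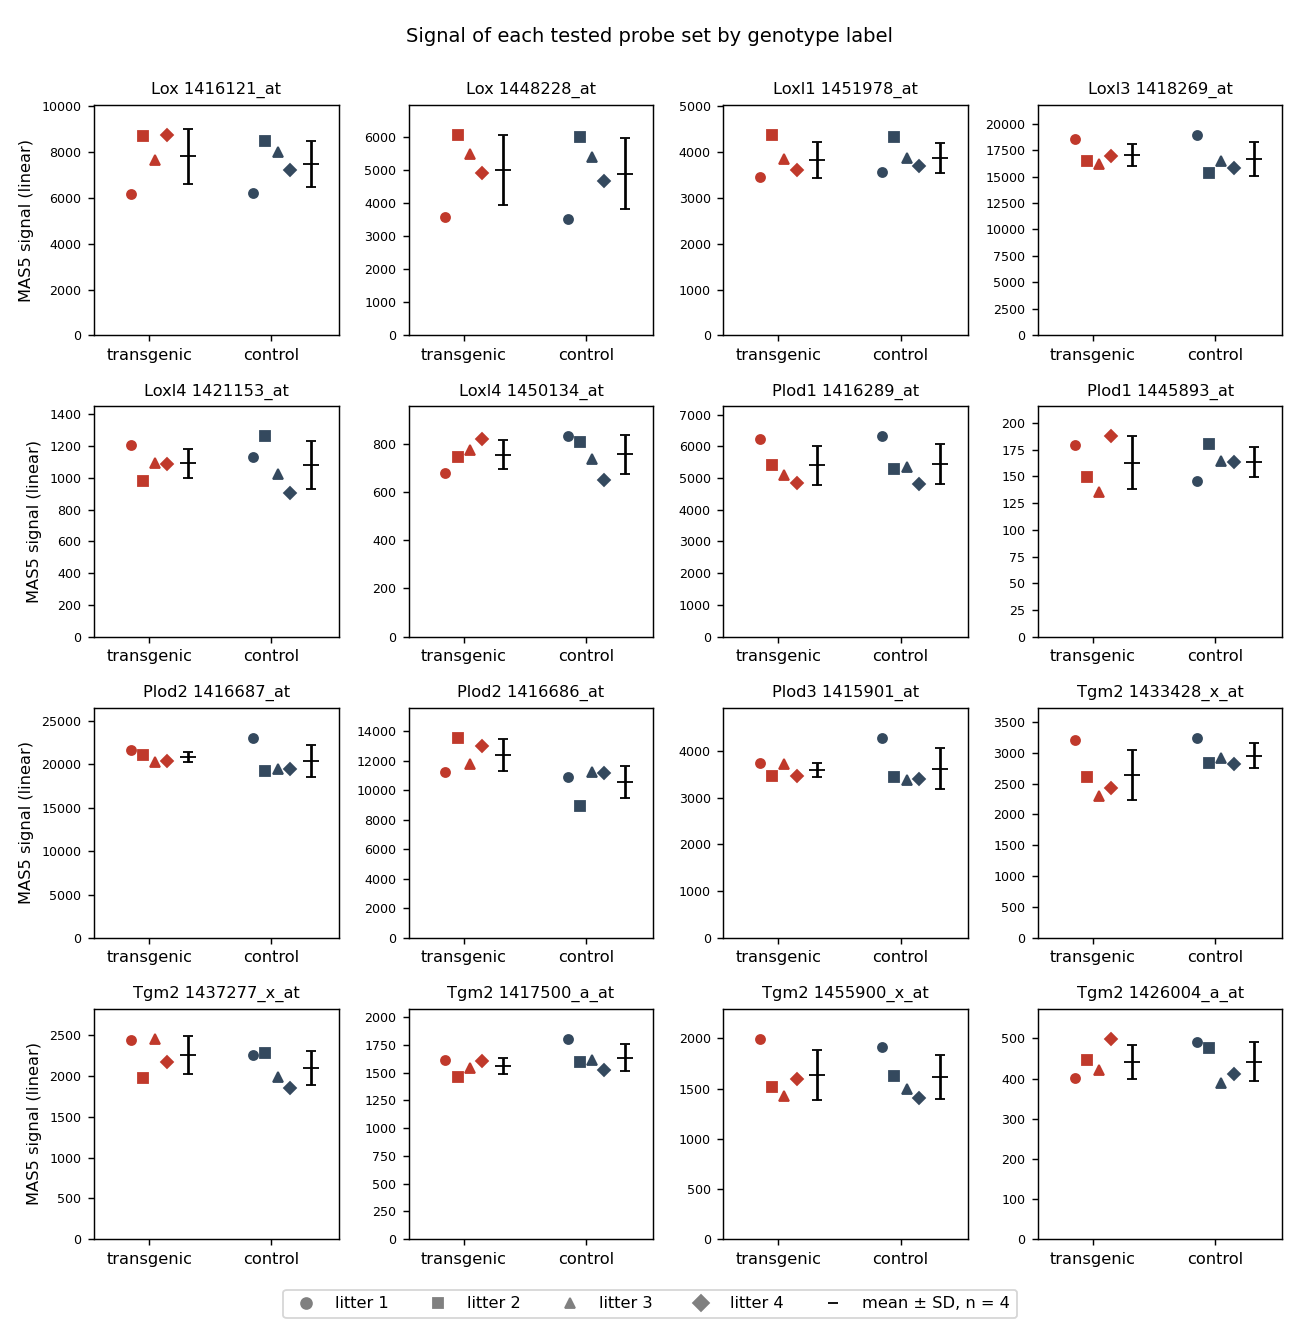
MAS5 signal (vertical axis, linear, from 0) of the 16 tested probe sets in the 4 transgenic and the 4 control arrays, with 1 marker shape per litter and the mean ± SD beside each group. The groups overlap in every panel except Plod2 1416686_at, and in both Lox panels the circles of litter 1 lie below all other arrays.

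Lox oxidises lysines of collagen and elastin and is the founding member of its family. Its brighter probe set, 1416121_at, had signals of 6187, 8714, 7659 and 8749 in the transgenic arrays of litters 1 to 4, against 6202, 8483, 7989 and 7210 in the control arrays. The groups overlapped, with the transgenic array higher in 2 of 4 litters, and the log2 fold change was 0.06 (95% interval -0.18 to 0.31). The second, 1448228_at, had 3586, 6063, 5483 and 4926 in transgenic and 3509, 5996, 5395 and 4656 in control arrays. Here the transgenic array was slightly higher in 4 of 4 litters, by 0.02 to 0.08 on the log2 scale, which is far less than the litters differed from each other. The fit gave 0.04 (95% interval -0.31 to 0.39), and -0.07 to 0.15 with the litter as a block. With Xist as a covariate the log2 fold changes were 0.29 for 1416121_at (unadjusted p = 0.037, adjusted p = 0.98) and 0.23 for 1448228_at (unadjusted p = 0.30).

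Loxl1, which is needed to maintain elastic fibres, averaged 3829 ± 398 in transgenic and 3871 ± 336 in control arrays (SD, n = 4 each) by its tested probe set, with a log2 fold change of -0.02 (95% interval -0.20 to 0.16). Its arrays within a litter lay close together, at 3466 in the transgenic and 3567 in the control array of litter 1 and at 4374 and 4339 in those of litter 2.

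Loxl3, which is required for normal palate and spine formation in mice, had 18580, 16453, 16198 and 16895 in transgenic arrays, against 18920, 15348, 16427 and 15844 in control arrays. The groups overlapped and the log2 fold change was 0.04 (95% interval -0.12 to 0.19). Loxl4, the fifth of the family, was measured by 2 tested probe sets, with log2 fold changes of 0.02 and 0.00 (95% intervals -0.21 to 0.25 and -0.22 to 0.22). Within each probe set the litters differed in direction, and the 2 probe sets did not share 1 pattern. Probe set 1421153_at was lower in the transgenic array of litter 2 alone, at 982 against 1261 in the control array. Probe set 1450134_at had 681, 746, 774 and 822 in the transgenic arrays of litters 1 to 4 and 831, 809, 737 and 649 in the control arrays, and so was lower in the transgenic array of litters 1 and 2 and higher in that of litters 3 and 4.

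Of the lysyl hydroxylases, Plod2 held the one member probe set whose groups did not overlap. Probe set 1416686_at had 11240, 13568, 11768 and 12997 in transgenic arrays, against 10915, 8964, 11226 and 11150 in control arrays. All 4 transgenic arrays lay above all 4 control arrays, as they did for 1.18% of all tested probe sets. The means were 12393 ± 1075 and 10564 ± 1075 (SD, n = 4 each), which limma put at a log2 fold change of 0.23 (95% interval 0.05 to 0.41; adjusted p = 0.9997). The unadjusted p was 0.014, and the exact two-sided permutation p was 0.029, the smallest that 4 against 4 arrays can give. That permutation ignores the litters, so it does not use the pairing of the arrays. Litter 2 contributed most, with a difference of 0.60 on the log2 scale against 0.04, 0.07 and 0.22 in litters 1, 3 and 4. Without control replicate 2, the lowest array of its group, the log2 fold change was 0.16 (unadjusted p = 0.055), and without both arrays of litter 2 it was 0.11 (unadjusted p = 0.14). Without the transgenic array of litter 4 it was 0.21, and with Xist as a covariate 0.35.

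The other probe set of Plod2, 1416687_at, is brighter. It had 21649, 21088, 20294 and 20459 in transgenic arrays, against 23108, 19268, 19536 and 19510 in control arrays. These groups overlapped, because the control array of litter 1 was the brightest of all 8, and the log2 fold change was 0.04 (95% interval -0.10 to 0.18). The fold changes of the 2 probe sets differed by 0.19 on the log2 scale, and the difference had the same sign in 4 of 4 litters (exact two-sided permutation p = 0.11, a pair chosen after its values were seen). Plod2 transcripts come in splice forms, and which of them each probe set reports is not given in the sources used here.

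Plod1, the main hydroxylase of lysines in the collagen helix, averaged 5396 ± 604 in transgenic and 5432 ± 636 in control arrays (SD, n = 4 each), with a log2 fold change of -0.01 (95% interval -0.21 to 0.19). Its dimmer tested probe set averaged 163.0 ± 24.8 in transgenic and 163.5 ± 14.2 in control arrays (SD, n = 4 each), with a log2 fold change of -0.01 as well. Plod3, which also adds the sugars to hydroxylysine, had 3735, 3455, 3718 and 3466 in transgenic arrays, against 4286, 3431, 3371 and 3391 in control arrays. Apart from the bright control array of litter 1, all 7 lay within 3371 and 3735, and the log2 fold change was 0.00 (95% interval -0.18 to 0.17).

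The 5 tested probe sets of Tgm2 did not point 1 way. The brightest, 1433428_x_at, had 3214, 2608, 2303 and 2422 in transgenic arrays, against 3246, 2832, 2914 and 2816 in control arrays. In 4 of 4 litters the transgenic array was the lower one. Its log2 fold change was -0.17 (95% interval -0.38 to 0.04, unadjusted p = 0.10), and with the litter as a block the interval was -0.31 to -0.03 (unadjusted p = 0.022, adjusted p = 0.85). Single arrays moved it: without transgenic replicate 1 it was -0.27 (unadjusted p = 0.0056), and without transgenic replicate 3 it was -0.11 (unadjusted p = 0.29). Probe set 1437277_x_at had 2435, 1970, 2454 and 2174 in transgenic arrays, against 2260, 2284, 1984 and 1856 in control arrays, higher in 3 of 4 litters, with a log2 fold change of 0.11 (95% interval -0.09 to 0.31). The fold changes of this pair, chosen after the values were seen, differed by -0.28 on the log2 scale (exact two-sided permutation p = 0.086). The remaining 3 gave log2 fold changes of -0.06, 0.02 and 0.00. Names ending in _x_at mark probe sets that may cross-hybridise with other transcripts, and both of the pair have such a name. Endothelium, a cell type rich in Tgm2, had a summed marker signal of 1441 to 2394 in transgenic and of 1895 to 2610 in control arrays, with 6 of 8 tested markers lower (median log2 fold change -0.24), and the part of these cells in the Tgm2 values was not tested.

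Of the 16 tested probe sets 3 ran the same way in all 4 litters, 1 each of Lox, Plod2 and Tgm2, against 13.4% of all tested probe sets. This is near the share of all.

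**Figure D2:**
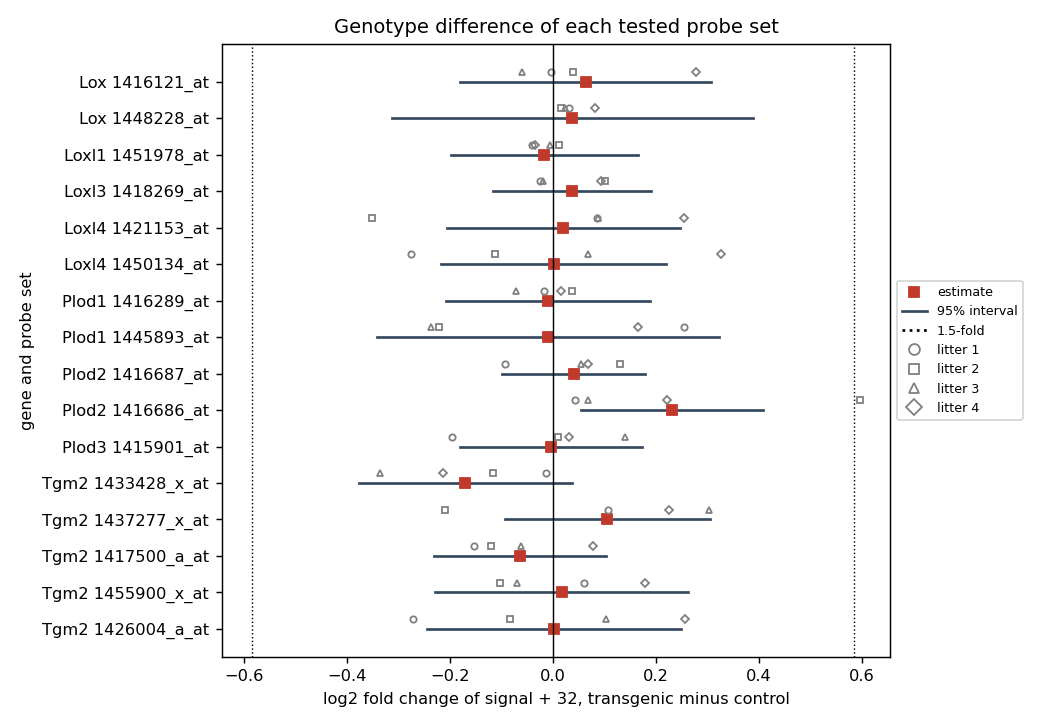
Log2 fold change of signal + 32, transgenic minus control (horizontal axis), of the 16 tested probe sets, with the estimate as a square, its 95% interval as a line, and the difference within each litter as an open marker above it. All intervals lie between the dotted lines of a 1.5-fold change, and only that of Plod2 1416686_at, from 0.05 to 0.41, does not reach 0.

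The 3 probe sets below the brightness needed for the test were dim on average, though Loxl1 1436063_at reached 147 in the control array of litter 2. Lox 1437903_at averaged 65.3 ± 32 in transgenic and 64.3 ± 23.8 in control arrays (SD, n = 4 each; exact permutation p = 1.00). Loxl1 1436063_at averaged 58.3 ± 44.3 and 75.2 ± 52.4 in transgenic and control arrays (exact permutation p = 0.60), and Tgm2 1438942_x_at 32.3 ± 14.9 and 23.8 ± 14.3 (exact permutation p = 0.46). Their brighter partners carry the values of these genes.

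Differences between litters were larger than those between genotypes for Lox. With the genotype held, the difference between the 4 litters was tested by an F test in limma. Lox 1448228_at passed at an adjusted p of 0.0027, as 1 of 16 member probe sets, against 0.484% of all tested probe sets. Its lowest litter was litter 1, with 3586 in the transgenic and 3509 in the control array, and its highest litter 2, with 6063 and 5996, a 1.69-fold difference between litter means. Lox 1416121_at had the same lowest and highest litters and a 1.39-fold difference (adjusted p = 0.078).

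At an unadjusted p under 0.05 the litters differed for 7 of the 16 probe sets, from 5 of the 8 genes, against 14.7% of all tested probe sets. These 7 fell on opposite sides of litter 1. Both of Lox and the one of Loxl1 were lowest in litter 1, while Loxl3, Plod1 1416289_at and Tgm2 1433428_x_at and 1455900_x_at were highest there. Plod1 had 6235 in the transgenic and 6314 in the control array of litter 1, and 4854 and 4799 in those of litter 4, the lowest, a 1.30-fold difference between litter means (adjusted p = 0.098). Tgm2 1455900_x_at had 1995 in the transgenic and 1912 in the control array of litter 1, and all other arrays lay between 1408 and 1629, with an adjusted p of 0.16. For Loxl1, Loxl3 and Tgm2 1433428_x_at the highest litter mean was 1.24, 1.18 and 1.24 times the lowest, with adjusted p values of 0.18 to 0.24. Neither probe set of Plod2, of Loxl4 nor that of Plod3 had an unadjusted p under 0.05 between litters.

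The Lox call rested on litter 1. Without both of its arrays the adjusted p of Lox 1448228_at was 0.32, without its transgenic array 0.051 and without its control array 0.057, and in a fit without an intensity trend it was 0.39. Litter calls over the whole array fell in the same 4 fits, from 109 to 10, 18, 17 and 0. Without both arrays of litter 2, 3 or 4 they were 90, 315 and 82. Some marker genes and summed lists also had their lowest or highest signals in litter 1. Summed tendon and joint markers were at 11684 in the transgenic and 11579 in the control array of litter 1, and between 13450 and 17977 in the other arrays. Most of that sum is Tnmd, with 7816 in the transgenic and 7747 in the control array of litter 1. Tnmd and Thbs4, both part of the sum, passed between litters in the F test (adjusted p = 0.0060 and 0.036). The erythroid gene Alas2 passed too (adjusted p = 0.0027), at 2170 in the transgenic and 2947 in the control array of litter 1 and between 3244 and 6100 in the other arrays. Summed fibroblast and perichondrium markers were at 172401 and 174388 in the transgenic and control arrays of litter 1, against 174914 to 204082 elsewhere. In the F test between litters 5 of 11 of these markers had an unadjusted p under 0.05, and 0 passed after adjustment. For tendon and joint markers these were 4 and 2 of 5. Summed hypoxia genes were at 97988 and 95635 in the transgenic and control arrays of litter 1, against 80167 to 87783 elsewhere. The median signal of the arrays was lowest in litter 1 as well, 100.5 in its transgenic and 103 in its control array. The part of any of these in the Lox values was not tested.

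**Figure D3:**
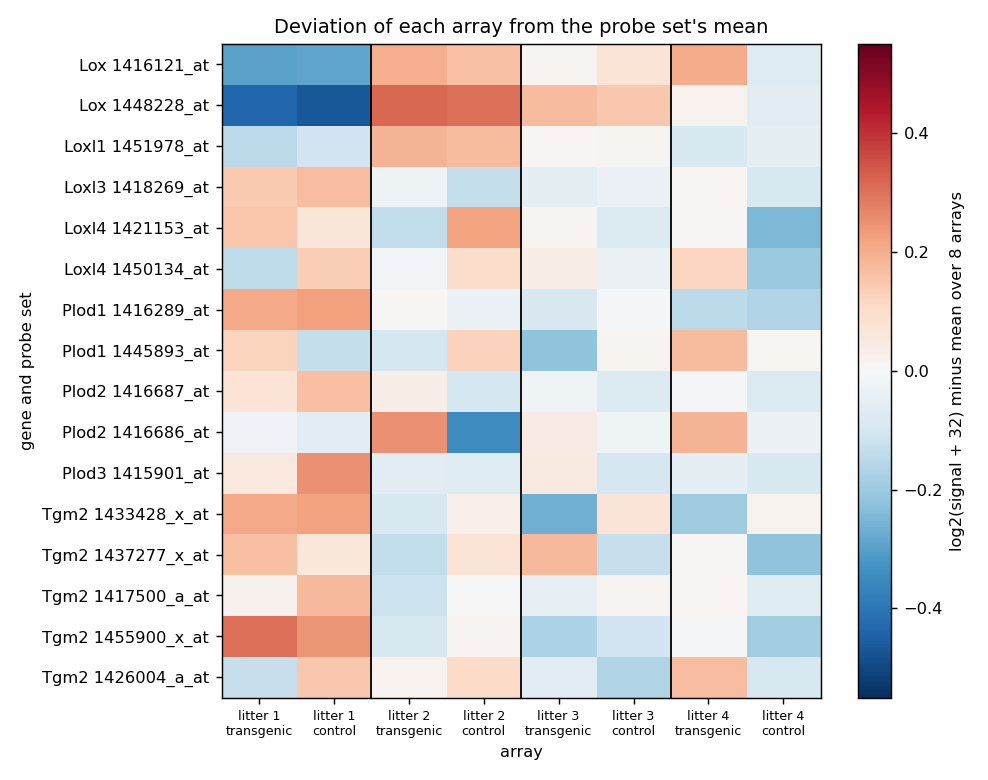
Deviation of log2(signal + 32) from its mean over the 8 arrays (colour) for the 16 tested probe sets (rows), with the arrays grouped by litter and the transgenic array left of the control array. In litter 1 both arrays are low for Lox and Loxl1 and high for Loxl3, Plod1 1416289_at and Tgm2 1433428_x_at and 1455900_x_at, while no such block follows the genotype.

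Among the 8 genes, by the brightest probe set of each, 28 pairs were correlated over the 8 arrays. Only Loxl3 and Plod2 passed after adjustment over the 28, with Pearson's r = 0.91 (exact permutation p = 0.0011, adjusted p = 0.031) and Spearman's rho = 0.95 (exact permutation p = 0.0011, adjusted p = 0.032). Without the 2 arrays farthest from the median of Loxl3, which are those of litter 1, r was 0.69 (exact permutation p = 0.13), so the relation rests in part on that litter. A litter holds 2 arrays, too few for a value within it, and with each litter's mean removed r was 0.81 as a description. Arrays of a litter are not independent, so these p values are too small. For Plod2 the relation is that of 1416687_at alone. No correlation was computed for its other tested probe set, 1416686_at. In litter 1 the mean log2 values of Loxl3 and 1416687_at lay 0.16 and 0.12 above their means over all arrays. That of 1416686_at did not, at -0.04. The relation is therefore not shown for Plod2 as a gene. Lox had r = -0.76 to Loxl3 and -0.74 to Plod3, neither of which passed (adjusted p = 0.11 each). The relation to Loxl3 turned its sign: without the 2 farthest arrays r was 0.33, and with litter means removed it was 0.77. That to Plod3 was weaker, at -0.12 without the 2 farthest arrays and 0.02 with litter means removed.

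The genes most like each member were sought among tested probe sets of 19702 to 19706, by Pearson's r of log2 values less their group mean over the 8 arrays, and are given as a description of these arrays. Lox was closest to Tusc1 and to Nexn, an actin-binding protein of muscle, both at 0.99. Loxl1 was closest to Gas6, a ligand of receptor tyrosine kinases (0.99), and Mtx3 (0.98). Loxl3 was closest to Slc2a1, a glucose transporter, and Cox11, an assembly factor of cytochrome oxidase (0.99 each), and Loxl4 to Cby1 and Qdpr (0.99 each). Plod1 was closest to Pou3f3, a transcription factor, and Id2, an inhibitor of helix-loop-helix factors (0.99 each), and Plod3 to Rab34, a small GTPase, and Ndufs3, a subunit of respiratory complex I (0.97 each). Plod2 was closest to Zfp770 (0.996) and Sar1a, the GTPase that starts export from the endoplasmic reticulum (0.99), and Tgm2 to Susd5 and Cnpy2 (0.99 each). With so many candidates and 8 arrays, values this high are found for each gene.

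Related genes were looked up in 8 lists, of the wider cross-linking pathway and of hypoxia and TGF-beta responsive genes. Of their 68 tested genes 0 passed an adjusted p of 0.05 between genotypes in limma. An unadjusted p under 0.05 was found for 2, P4ha3 and Skil, no more than the 3.29% of all tested probe sets. Of 11 tested fibrillar collagens, the substrates of both enzyme families, 9 were higher and 2 lower (median log2 fold change 0.05), with Col11a2 at 0.07, Col11a1 at 0.06 and Col3a1 at 0.05 as those of smallest p. Of 8 elastic fibre genes 2 were higher and 6 lower (median -0.04), with Emilin1 at -0.13, Eln, elastin itself, at -0.13 and Mfap2 at -0.06. Of 14 partners that fold procollagen or modify its prolines and lysines 10 were higher and 4 lower (median 0.02). Among them P4ha3, a subunit of prolyl 4-hydroxylase, was at -0.26 (95% interval -0.52 to -0.0030, unadjusted p = 0.048), Fkbp14, a prolyl isomerase, at 0.11 and Serpinh1, the collagen chaperone HSP47, at 0.06.

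Of 7 tested genes that process procollagen or the lysyl oxidase precursor 5 were higher and 2 lower (median 0.03). Bmp1, the protease that releases active Lox, was at 0.19 (95% interval -0.02 to 0.40) and higher in the transgenic array of 4 of 4 litters, Pcolce, an enhancer of Bmp1, at -0.10 and Fn1, fibronectin, at 0.07. Of 6 genes of copper supply 3 were higher and 3 lower (median -0.04). The copper importer Slc31a1 was at -0.14 and lower in 4 of 4 litters, its relative Slc31a2 at -0.13 and Commd1 at 0.09. Of the other transglutaminases F13a1, at -0.03, and Tgm3, at -0.09, were bright enough to be tested. Hypoxia genes gave 4 higher and 8 lower of 12 (median -0.06), with Hif1a at 0.09, Ndrg1 at -0.10 and Ankrd37 at -0.15. Genes of the TGF-beta response gave 7 higher and 1 lower of 8 (median 0.05), with Skil at 0.17 (unadjusted p = 0.048), Tgfb2 at -0.12 and Pmepa1 at 0.08. Besides Bmp1 and Slc31a1, of the genes named for these lists Serpinh1, Fn1, Slc31a2, Hif1a and Pmepa1 also ran the same way in 4 of 4 litters. Of all tested probe sets 13.4% did so.

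Litter differences varied between the lists. At an unadjusted p under 0.05 the litters differed for 7 of the 8 elastic fibre genes and 8 of the 12 hypoxia genes, for 4 of the 7 processing genes, and for 3 each of the fibrillar collagens, the partners and the TGF-beta genes, but for 1 of 6 copper genes and 0 of 2 other transglutaminases, against 14.7% of all tested probe sets. None of these passed after adjustment. Eln and Fbln5 came closest among the elastic fibre genes, with adjusted p values of 0.057 and 0.054.

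**Figure D4:**
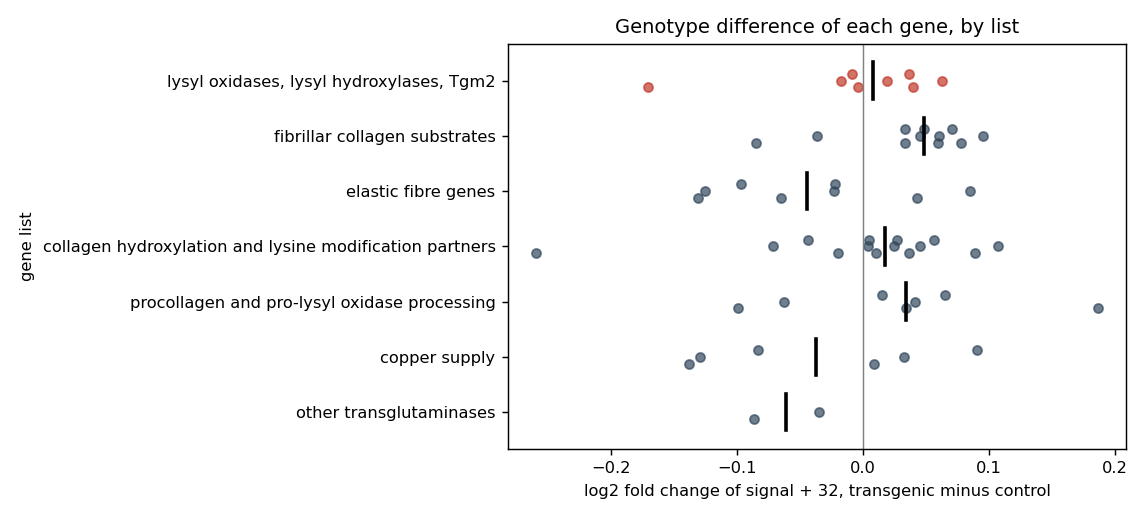
Log2 fold change of signal + 32, transgenic minus control (horizontal axis), of each gene's brightest tested probe set (points) for the 8 cross-linking enzymes and 6 lists of their pathway, with the median of each list as a bar. The medians lie between -0.06 and 0.05, and the lowest point of the enzymes is Tgm2 at -0.17.

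Markers of the cell types that the digest could hold are given by their counts of higher and lower tested genes. Chondrocyte markers gave 8 and 2, hypertrophic chondrocyte markers 4 and 2, fibroblast and perichondrium markers 7 and 4, tendon and joint markers 4 and 1, osteoblast markers 3 and 1, skeletal muscle markers 8 and 2, and smooth muscle and pericyte markers 4 and 2. Endothelium gave 2 and 6, erythroid cells 0 and 2, macrophages 1 and 3, nerve and Schwann cells 1 and 1, adipocytes 0 and 2 and epidermis 0 and 2. Immediate early genes of tissue dissociation gave 9 and 1, and of 4 sex-linked genes 3 were higher and Xist lower. Of all tested probe sets 51.2% were above 0. None of these genes passed the adjusted threshold. An unadjusted p under 0.05 in limma was found for the 4 sex-linked genes, 2 immediate early genes (Klf4 at 0.29 and Dusp1 at 0.17), and 1 gene each of 2 marker lists. These were the hypertrophic marker Alpl, at -0.31, and the endothelium marker Cdh5, at -0.60, both lower in 4 of 4 litters. For chondrocyte and for fibroblast and perichondrium markers the summed signals overlapped between genotypes, from 251358 to 271255 in transgenic and 238673 to 263248 in control arrays for chondrocyte markers, and from 172401 to 204082 and 174388 to 197685, in transgenic and control arrays, for fibroblast and perichondrium markers.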

How the data were processed

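The authors deposited 1 table of signal intensities, 1 value per probe set and array, computed by MAS5, as the submitters' processing notes name it; the software version and detection calls are not known here. The deposited intensities have a mean of 500 on each array without the top and bottom 2%. After 64 manufacturer's control probe sets were left out, values were turned to log2(signal + 32), and the 22518 of 45037 probe sets whose mean lay above the median were tested. No further normalization was applied. The added constant makes fold changes of dim probe sets smaller.

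Genotype differences come from limma 3.58.1 (with statmod 1.5.0 in R 4.3.3; lmFit, then eBayes with trend) without a block, and litter differences from an F test in a fit of genotype and litter. Benjamini-Hochberg adjustment ran over the 22518 probe sets. For single values, exact two-sided permutation used 70 assignments, which ignore the litters. The litter numbers pair the arrays, per the labels; correlations of deviations from the group means within litters 1 to 4 were 0.28, 0.17, 0.04 and 0.15, against -0.05 between litters. The scripts were tested on simulated data. Figures were drawn with matplotlib 3.10.9 (Python 3.11.15).

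Genes were named through the platform annotation, checked by gene identifier against a RefSeq table of GRCm38.p6, which changed 0 symbols. The enzymes and the 23 gene lists were chosen with earlier results of these data known. All probe sets of the enzymes are named, up to 3 genes of smallest p per pathway list, and the 2 genes closest to each enzyme. The number of arrays, 4 per group, limits the precision. Alternatives were the constant, the filter, quantile normalization, the litter as a block, fixed or random, no trend, no probe sets ending in _s_at or _x_at, Xist as a covariate, and leaving out each array or litter.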

Additional observations from a re-analysis of the deposited data

Results flagged for a closer look

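In 38 groups of 4 arrays, 1 for each genotype and member probe set, 3 single arrays lay far from the other 3 of their group; chance gives about 1 in 20 groups. The control array of litter 1 was the highest for Plod2 1416687_at, with 23108 against 19268 to 19536 in the other control arrays, and for Plod3 1415901_at, with 4286 against 3371 to 3431. The control array of litter 2 was the lowest for Plod2 1416686_at, with 8964 against 10915 to 11226, and it is the array without which the genotype difference of that probe set had an unadjusted p of 0.055. All 3 flags fall on lysyl hydroxylases in control arrays, and no lysyl oxidase or Tgm2 probe set was flagged. As 3 of 38 is near the share that chance gives, this is a description only. The share over all probe sets of the array is not given.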

How the results depend on the processing

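No member probe set passed an adjusted p of 0.05 between genotypes in limma in the fit reported or in any of 22 alternatives, the lowest adjusted p being 0.83 (Plod2 1416686_at with Xist as a covariate), while 1 probe set was at an unadjusted p under 0.05 in the fit reported. That number was 2 with the litter as a fixed replicate block, 1 with it as a random replicate block, 2 with Xist as a covariate (Plod2 1416686_at and Lox 1416121_at), 0 without an intensity trend and 0 to 2 with arrays or litters left out. Over all genes the count past the adjusted threshold was 1 with Xist as a covariate and 0 to 2 with arrays or litters left out. The median log2 fold change of the 8 genes was -0.031 with Xist as a covariate and -0.035 to 0.055 with arrays or litters left out. The litter call of Lox became 2 member calls with quantile normalization, 0 without an intensity trend and 0 to 2 with arrays or litters left out.

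Of 347 single fits 52 turned a sign, none of a value past 0.11 on the log2 scale in the fit reported. With Xist as a covariate Loxl1 1451978_at turned to 0.043, Loxl3 to -0.0042, Loxl4 1421153_at to -0.058, Plod1 1445893_at to 0.083, Tgm2 1437277_x_at to -0.035 and Tgm2 1455900_x_at to -0.054, and with quantile normalization Plod1 1445893_at to 0.0052; the cause was not tested. Leaving out arrays or litters gave -0.023 to 0.17 for Lox 1416121_at, -0.11 to 0.19 for Lox 1448228_at, -0.083 to 0.038 for Loxl1, -0.0059 to 0.10 for Loxl3, -0.060 to 0.14 for Loxl4 1421153_at, -0.11 to 0.094 for Loxl4 1450134_at, -0.080 to 0.065 for Plod1 1416289_at, -0.097 to 0.066 for Plod1 1445893_at, -0.052 to 0.079 for Plod3, -0.082 to 0.10 for Tgm2 1455900_x_at and -0.084 to 0.092 for Tgm2 1426004_a_at. Neither probe set of Plod2 turned in any alternative, nor did Tgm2 1433428_x_at, at -0.27 to -0.11 with arrays or litters left out, or 1417500_a_at.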
